A study of Mus musculus with 2 samples.

Results

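Hair keratins, the inner root sheath keratins, trichohyalin and the keratin-associated proteins (Krtap) were followed in newborn mouse skin with and without *Pnpla1*. Members were taken by gene name on the array, namely every gene whose name starts with Krtap, 22 keratins of the hair shaft and its sheaths, and *Tchh*. This gave 75 genes of 30133 on the array, of which 52 were Krtap genes of 25 families, read by 92 probes.

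Total skin RNA of newborn C57BL/6N mice at postnatal day 0 was compared between *Pnpla1*+/+ (wild type) and *Pnpla1*-/- (knockout) pups, with 1 array per genotype and RNA of 6 animals pooled on each. The knockout was whole-body, made from a knockout-first allele from which the reporter and Neo cassettes had been removed by flippase, and the controls were wild-type littermates. The labels give the tissue as skin, whereas the design text also speaks of epidermis. Both arrays lay on 1 slide at different positions, so that position, pool and genotype cannot be told apart, and with 1 array per genotype no difference has a replicate and no test between genotypes could be made. Each array carried 43020 spots other than controls, of which 71.7% (*Pnpla1*+/+) and 73.3% (*Pnpla1*-/-) were well above background and none was saturated. Intensities are given as deposited, *Pnpla1*+/+ first, and log2 differences are *Pnpla1*-/- minus *Pnpla1*+/+ after division by the 75th percentile of each array (2108 and 1734). Technical noise on a difference between single spots had an SD of 0.08, a median over 314 probes with at least 8 spots. It comes from spots within each array, and leaves out the variation between animals and differences between the arrays in RNA preparation, labelling or hybridization. *Krtap6-5*, the member with replicate spots, gave a larger SD of 0.23. *Pnpla1* itself gave a signal of 579 on the wild-type and 114 on the knockout array, a log2 difference of -2.07. The sex-linked genes *Xist* (1.12), *Ddx3y* (-2.19) and *Eif2s3y* (-2.19) also differed between the pools, and the part of the sex of the pups in the values below was not tested.

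The hair shaft is built from type I (acidic) and type II (basic) hair keratins, which pair into intermediate filaments, embedded in a matrix of keratin-associated proteins. Krtap proteins are small and rich either in cysteine, which cross-links them through disulfide bonds, or in glycine and tyrosine. Around the growing shaft, the inner root sheath forms a rigid mould from its own type I and type II keratins and trichohyalin, and the companion layer, which carries keratin 75, separates it from the outer root sheath. At birth the first follicles of the mouse are still growing into the dermis and the first shafts are being made.

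Most members were lower in *Pnpla1*-/- skin. Of the 75 genes, 69 were well above background on both arrays and 6 on neither (*Krt74*, *Krtap13*, *Krtap14*, *Krtap19-1*, *Krtap19-3* and *Krtap4-6*), so that no member had only a bound. Among the 69, 34 (49.3%) were at least 2-fold lower, against 3.04% of all 22374 genes with a difference or a bound (2.56% of the 20680 measured on both arrays), and 1 (*Krt84*) was at least 2-fold higher, against 6.7% of all genes (5.65% of those on both arrays). The remaining 34 differed by less than 2-fold. Values were below 0 for 60 members (87.0%), against 49.8% of all genes. The median over the members was -1.0, with quartiles of -1.41 and -0.43, whereas the median of all genes was 0.00. The division at 2-fold falls in a dense part of the distribution, between *Krtap20-2* at -1.04 and *Krtap16-3*, which missed it narrowly at -1.0. These members also spanned a wide range of signal, from an intensity of 26.1 to 84120 in *Pnpla1*+/+ skin. The 35 brighter members had a median of -1.10 with 19 at least 2-fold lower, and the 34 dimmer members a median of -0.98 with 15. In bulk RNA, fewer cells of a type and less RNA per cell cannot be told apart.

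**Figure D1:**
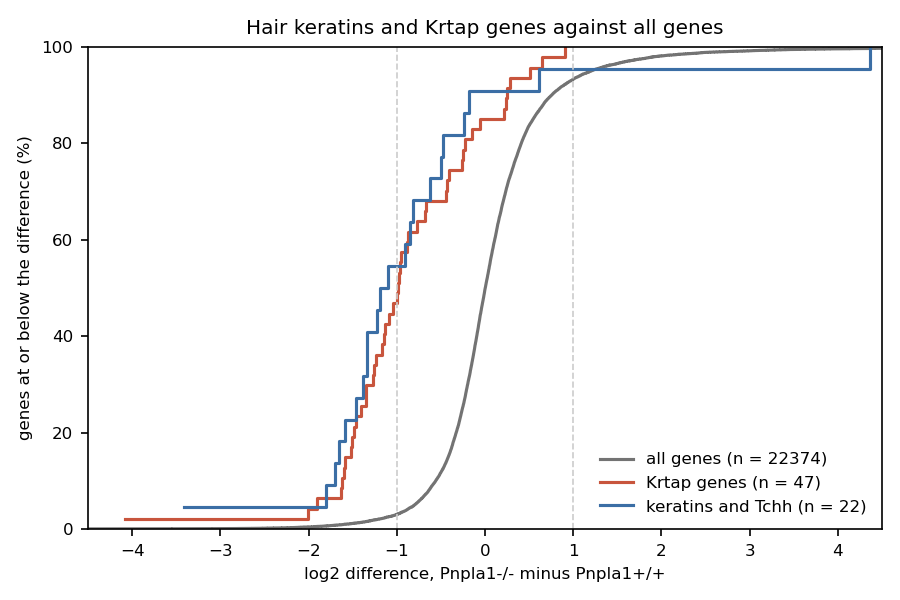
Cumulative distribution of the log2 difference (*Pnpla1*-/- minus *Pnpla1*+/+, x axis) for all genes, Krtap genes, and keratins with *Tchh*; the y axis is the percentage of genes at or below each difference, and dashed lines mark 2-fold. Through the middle of the distribution both member curves lie to the left of the curve of all genes, which reaches further at both ends, with medians of -0.99 (47 Krtap genes) and -1.15 (22 keratins and *Tchh*) against 0.00.

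The promoters of these genes are alike in a feature that the gene names do not use. RefSeq promoters on GRCm38.p6 (250 bases before to 50 after the start) were found for 62 members, and 50 of them (80.6%) held TATAAA, the core of a TATA box, on either strand, against 13.6% of 32851 promoters. It was in 82.6% of the Krtap promoters and in 12 of 16 promoters of keratins and *Tchh*. TATAAA on the strand of the gene and 45 to 16 bases before the start, a window chosen after the data were seen, was in 58.1% of member promoters and 2.14% of all. TCAAAG, the core letters bound by *Lef1*, was in 30.6% of member promoters on either strand against 16% of all. The 48 measured members with TATAAA had a median difference of -1.07 (25 at least 2-fold lower), and the 9 measured members without it a median of -0.50 (3 at least 2-fold lower). Members without TATAAA are not thereby without a TATA box. Of them, *Krt36*, *Krtap3-3*, *Krtap15*, *Krtap16-1* and *Krtap19-4* hold the near match TATATAAG in the last 80 bases before the start. The split is thus by the exact letters alone. A match of letters is a description and no evidence of binding. The last 80 bases before the start are shown for examples of the hair, sheath and companion layer keratins, for *Krtap17-1* and *Krtap28-13* and for the whole *Krtap3* family, examples chosen after their values were seen, with TATAAA in capitals where it occurs on the printed strand.
Krt33b promoter, chr11:100029869-100029948 (- strand): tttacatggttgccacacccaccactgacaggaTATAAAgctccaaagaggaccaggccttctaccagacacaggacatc
Krt25 promoter, chr11:99322952-99323031 (- strand): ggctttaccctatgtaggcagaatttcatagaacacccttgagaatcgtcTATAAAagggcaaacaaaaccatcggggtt
Krt72 promoter, chr15:101786521-101786600 (- strand): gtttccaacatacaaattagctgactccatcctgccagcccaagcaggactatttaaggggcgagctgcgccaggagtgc
Krt84 promoter, chr15:101532821-101532900 (- strand): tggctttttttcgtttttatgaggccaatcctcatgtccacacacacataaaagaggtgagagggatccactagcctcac
Krt75 promoter, chr15:101573905-101573984 (- strand): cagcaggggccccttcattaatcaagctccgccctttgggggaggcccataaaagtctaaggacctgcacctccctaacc
Krtap17-1 promoter, chr11:99993995-99994074 (- strand): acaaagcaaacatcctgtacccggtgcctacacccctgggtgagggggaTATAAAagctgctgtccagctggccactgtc
Krtap3-1 promoter, chr11:99566631-99566710 (- strand): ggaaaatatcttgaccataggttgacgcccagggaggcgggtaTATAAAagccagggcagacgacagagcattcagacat
Krtap3-2 promoter, chr11:99556854-99556933 (- strand): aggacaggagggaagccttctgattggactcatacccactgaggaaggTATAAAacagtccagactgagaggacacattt
Krtap3-3 promoter, chr11:99550864-99550943 (- strand): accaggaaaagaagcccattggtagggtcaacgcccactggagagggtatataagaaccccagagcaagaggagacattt
Krtap28-13 promoter, chr1:83060850-83060929 (+ strand): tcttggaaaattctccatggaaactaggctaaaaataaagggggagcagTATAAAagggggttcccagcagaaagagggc
Among the 10 sequences, *Krt72*, which was much lower, and *Krt84* and *Krt75*, which were higher, lack TATAAA in these 80 bases (*Krt72* and *Krt84* hold it elsewhere in the wider window), and so does *Krtap3-3*, which was lower like *Krtap3-1* and *Krtap3-2*.

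Type I hair keratins, which fill the cortex and cuticle of the shaft with their type II partners, were all lower in *Pnpla1*-/- skin. Of the 7 genes, 6 were at least 2-fold lower, their median being -1.47 between extremes of -1.70 and -0.62. *Krt35*, which appears early in the hair matrix and precortex and was the brightest of them, gave a signal of 22088 on the wild-type and 7211 on the knockout array, a log2 difference of -1.33. The cortex keratins that follow it were lower by similar amounts. *Krt31* had intensities of 2226 and 662 (-1.47). *Krt33a* had intensities of 3317 and 840 (-1.70), the largest difference of the class. *Krt33b* had intensities of 1850 and 505 (-1.59), and its promoter, shown above, holds TATAAA. *Krt34* had intensities of 1016 and 264 (-1.66). *Krt32*, a keratin of the shaft cuticle, had intensities of 158 and 56.7 (-1.20), and with normexp background correction it gave -0.65, which leaves 5 genes of the class at least 2-fold lower. *Krt36* had intensities of 529 and 283 (-0.62) and was the member of this class under 2-fold.

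Type II hair keratins were less uniform. Of the 6 genes, 2 were at least 2-fold lower and 1 at least 2-fold higher, with a median of -0.37. The cortex keratin *Krt86* gave a signal of 2505 on the wild-type and 815 on the knockout array (-1.34). The probe named *Krt83*, whose accession RefSeq now places under *Krt87*, had intensities of 362 and 114 (-1.38). These values lie within the range of the type I genes, whereas the next were nearer 0. *Krt81* had intensities of 2403 and 1677 (-0.24). *Krt82*, of the shaft cuticle, had intensities of 456 and 265 (-0.50). *Krt85*, which like *Krt35* is made early in the matrix, had intensities of 11136 and 8101 (-0.18) by its brightest probe.

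The 3 probes of *Krt85* did not give 1 value, and the gene's place among the type II keratins depends on which is read. The brightest, which the files do not place on the genome, gave -0.18. The probe at chr15:101346117-101346176 of mm9 had intensities of 2086 and 1260 (-0.45). The probe at chr15:101261695-101261754, beside the one named *Krt83* at chr15:101263556-101263615, had intensities of 10976 and 3557 (-1.34), about the difference of *Krt83*. The first 30 of the 60 bases of each probe are given, since the probes read different sequences.
Krt85 unplaced probe: agtaccaggaggtaatgaactccaagctgg
Krt85 probe at 101346117: cagatccagcttcccctatggtgtcctccc
Krt85 probe at 101261695: aaactactctaatcacacttcttgggttac
With the mean over all probes of each gene, the median of the type II hair keratins was -0.58.

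*Krt84* was the single member at least 2-fold higher. This keratin, known from the filiform papillae of the tongue, gave a signal of 57.5 on the wild-type and 974 on the knockout array, a log2 difference of 4.37 (20.6-fold). Its 1 probe lies at chr15:101355458-101355517 of mm9 and was well above background on both arrays. The lowest value under the 12 alternatives was 3.24.

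Inner root sheath keratins were lower in *Pnpla1*-/- skin where they could be measured. All 4 type I genes were below 0, 3 of them at least 2-fold lower, with a median of -1.16. *Krt25* gave a signal of 24000 on the wild-type and 10567 on the knockout array (-0.90). *Krt27* had intensities of 19104 and 7317 (-1.10). *Krt28* had intensities of 21993 and 7737 (-1.23), and its other probe gave the same value to 2 decimals. These genes are made throughout the layers of the sheath. *Krt26*, which is restricted to the cuticle of the sheath, had intensities of 510 and 121 (-1.80), the largest difference among the type I genes. Of the type II genes, *Krt71*, made in all layers of the sheath, had intensities of 84119 and 39193 (-0.82). *Krt73* had intensities of 14243 and 6506 (-0.85). Both were lower by less than 2-fold, and past it with no scaling and with spike-in centring. *Krt72*, like *Krt26* and *Krt73* a keratin of the sheath cuticle, stood apart with intensities of 2583 and 200 (-3.41, 10.6-fold lower). *Krt74*, of the Huxley layer, had intensities of 29.7 and 16.7 and stayed near background on both arrays. Its difference was not measured.

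The genes beside the sheath keratins differed less. *Tchh*, whose product trichohyalin hardens the inner root sheath and the medulla, gave a signal of 25471 on the wild-type and 15006 on the knockout array (-0.48). *Krt75*, the keratin of the companion layer, had intensities of 809 and 1014 and was higher by 0.61, under 2-fold. Taken by keratin type, 9 of 11 type I members were at least 2-fold lower (median -1.33), against 3 of 10 measured type II members with 1 higher (median -0.66).

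**Figure D2:**
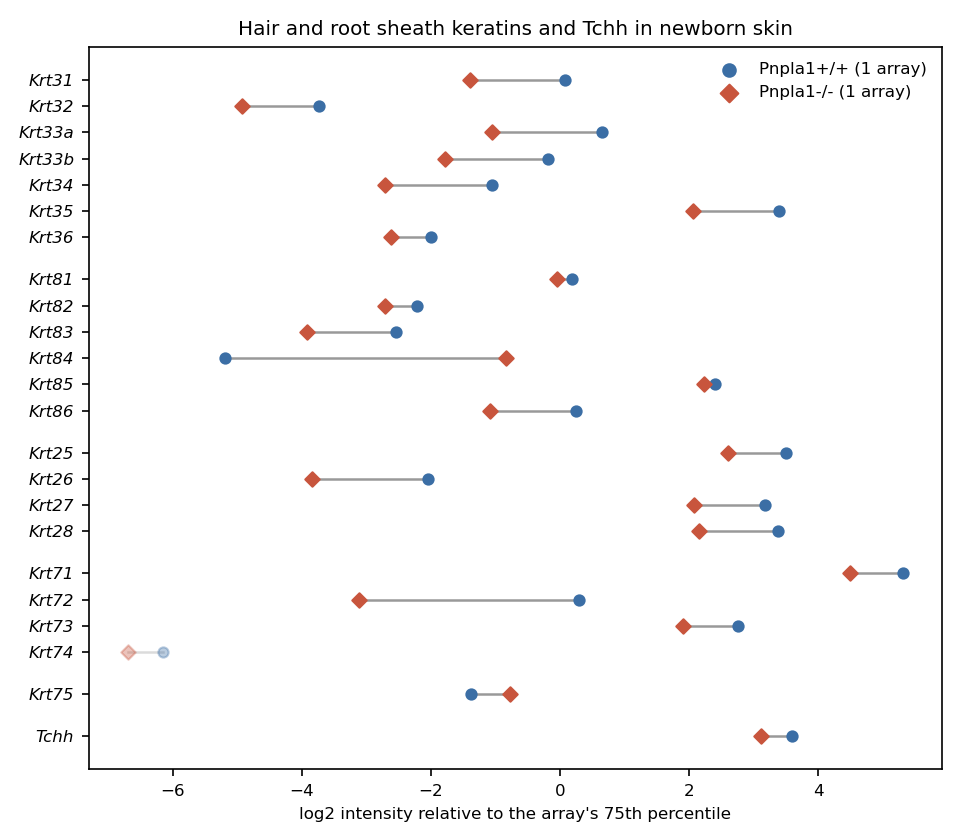
Level of each keratin and of *Tchh* on both arrays, as log2 intensity relative to the 75th percentile of its array (x axis); circles are *Pnpla1*+/+, diamonds *Pnpla1*-/-, and pale symbols mark *Krt74*, which was not well above background. From top to bottom the groups are type I hair, type II hair, type I sheath and type II sheath keratins, *Krt75* and *Tchh*. The diamond lies to the left of the circle for all measured genes but *Krt84* (4.37) and *Krt75* (0.61). Levels of different genes are read by different probes and are not comparable along the axis.

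Keratin-associated proteins were mostly lower. Of the 52 Krtap genes, 47 were measured, of which 40 were below 0, 22 at least 2-fold lower and none at least 2-fold higher, their median being -0.99 between extremes of -4.08 and 0.91. *Krtap3-2*, of the cysteine-rich *Krtap3* family, had the most negative difference of all members, giving a signal of 1315 on the wild-type and 63.9 on the knockout array (-4.08, 16.9-fold lower). Its neighbours in the cluster were lower by less. *Krtap3-1* had intensities of 961 and 262 (-1.59). *Krtap3-3* had intensities of 1007 and 289 (-1.52). *Krtap3* was thus a family of 3 genes that were all at least 2-fold lower, as were both *Krtap28* genes. *Krtap28-10* had intensities of 169 and 37.2 (-1.91), and was just under 2-fold with normexp background correction (-0.97). *Krtap28-13* had intensities of 447 and 119 (-1.63). Both lie on chromosome 1, away from the large clusters. *Krtap17-1*, cysteine-rich and the brightest Krtap gene in *Pnpla1*+/+ skin, had intensities of 4765 and 979 (-2.0). *Krtap1-3* had intensities of 129 and 34.6 (-1.62), and was under 2-fold with normexp (-0.58). *Krtap4-7* had intensities of 447 and 123 (-1.58). Together these were the 8 Krtap genes with the largest lower values.

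The other bright Krtap genes included both lower and higher values. *Krtap20-2*, of a family rich in glycine and tyrosine, had intensities of 4058 and 1619 (-1.04). *Krtap6-1*, of the same kind, had intensities of 1526 and 571 (-1.14). Of the cysteine-rich genes, *Krtap5-3* had intensities of 2586 and 960 (-1.15). These 3 were lower by close to 2-fold, *Krtap20-2* falling just under it with cyclic loess (-0.97) and *Krtap6-1* with the mean over probes (-0.85). *Krtap5-2* had intensities of 1669 and 612 (-1.16). *Krtap11-1* had intensities of 1487 and 460 (-1.41). *Krtap10-4* had intensities of 1404 and 626 (-0.88). *Krtap4-8* had intensities of 1552 and 964 (-0.41), a smaller difference than most of the 6 measured genes of its family, whose median was -0.98. In contrast, *Krtap10-10* had intensities of 2246 and 3473 and was higher by 0.91, opposite to *Krtap10-4* of the same family.

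No Krtap gene was at least 2-fold higher. The largest higher values after *Krtap10-10* were small and mostly of dim genes. *Krtap24-1* had intensities of 51.5 and 66.6 (0.65). *Krtap1-4* had intensities of 147 and 173 (0.51), whereas *Krtap1-3* and *Krtap1-5* beside it gave -1.62 and -1.46. *Krtap31-2* had intensities of 26.6 and 26.6 (0.28), near the lowest signal above background (23.9 and 21.7), and *Krtap19-4* had intensities of 2019 and 1971 (0.25), and both values turned below 0 with centring on spike-in RNA, the former also with quantile normalization and the latter with no scaling. The *Krtap19* family, rich in glycine and tyrosine, had no gene at least 2-fold lower by the names in the files, with a median of -0.06 over 3 measured of 5 genes, but the probe that the files name *Krtap16-1* (-1.35) carries an accession that RefSeq lists as *Krtap19-2*. The *Krtap4* family had 3 of 6 measured genes at least 2-fold lower, of which only *Krtap4-7* stayed so with normexp, where *Krtap4-2* went from -1.26 to -0.81 and *Krtap4-9* from -1.09 to -0.71. The *Krtap5* family had 2 of 5.

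**Figure D3:**
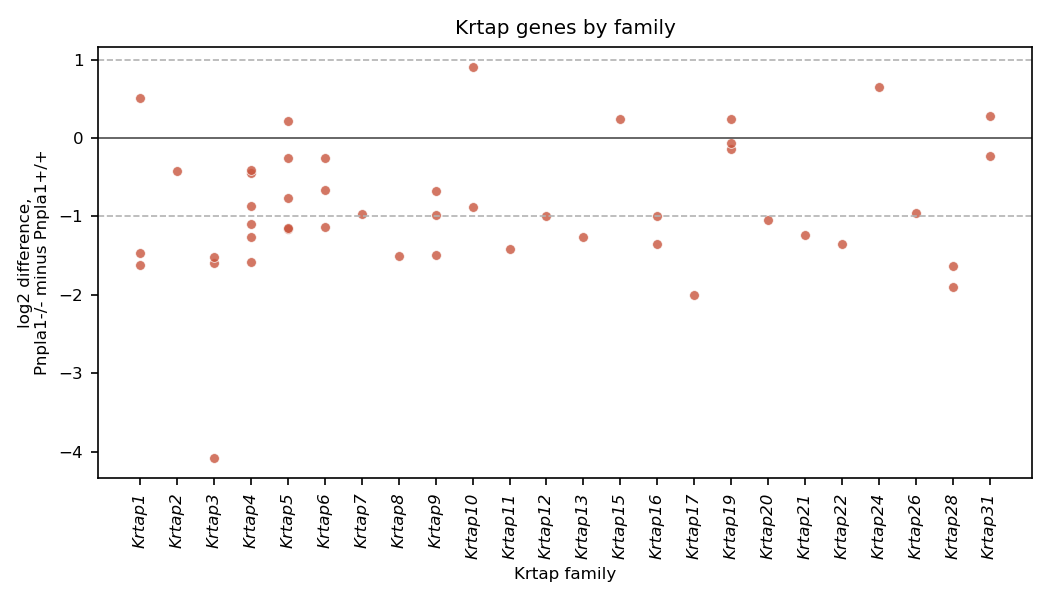
Log2 difference (*Pnpla1*-/- minus *Pnpla1*+/+, y axis) of each measured Krtap gene by family (x axis); 1 point is 1 gene, and dashed lines mark 2-fold. Every gene of *Krtap3* and *Krtap28* lies below the lower dashed line, and no gene lies above the upper one, where *Krtap10-10* comes nearest at 0.91.

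Repeated spots and probes give a measure of technical precision for a few of these genes. *Krtap6-5*, with 10 spots, had intensities from 135 to 208 (median 156) in *Pnpla1*+/+ skin and from 69.5 to 93.4 (median 80.4) in *Pnpla1*-/- skin. The spots of the arrays did not overlap, and the difference of -0.67 between the means had a technical SD of 0.07, against 0.23 for a difference between single spots. For 10 genes read by several measured probes, the probes spanned a median of 0.41, and 4 genes had a range over 0.5, among them *Krt85*. *Krtap5-5* ranged from -1.47 to 0.21, and 3 of its 4 probes were at least 2-fold lower, while the probe at chr7:149415808-149415867 that represents the gene gave 0.21. *Krtap4-16* ranged from -1.52 to -0.87 and *Krtap6-1* from -1.14 to -0.56. Counted by probe, 43 of 83 measured member probes were at least 2-fold lower, where a gene with several probes counts more than once. The same share over all probes of the array was not computed. Members are close in sequence, and 11 pairs of probes of different genes, touching 13 genes, shared a run of at least 15 bases. The longest shared run was 25 bases (*Krtap16-3* with the probe named *Krtap16-1*), followed by 24 bases (*Krt83* with *Krt81*). The unplaced *Krt85* probe (-0.18) shared 16 bases with the *Krt81* probe (-0.24). The part of cross-hybridization in these values was not tested.

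The lower values extended over each of the gene clusters to a different degree. Probes of 31 members lie between 99177867 and 99963330 on chromosome 11 of mm9, with Krtap genes between the sheath and hair keratins, and 19 of the 30 measured genes were at least 2-fold lower (median -1.24). On chromosome 15, from 101263556 to 101623743, 3 of 9 measured type II members were at least 2-fold lower and 1 higher (median -0.82), the lower ones being 5 with no scaling and with spike-in centring. *Krt85* is not among these 9, since the probe that represents it is unplaced. On chromosome 16, from 88611735 to 89570421, 8 of 18 measured Krtap genes were at least 2-fold lower (median -0.98). The 5 *Krtap5* genes on chromosome 7 had a median of -0.77. None of the 3 Krtap genes on chromosome 10 was at least 2-fold lower, with a median of -0.88, and 2 were with no scaling and with spike-in centring. Keratins outside the members lie among them. On chromosome 11, *Krt10* between the sheath keratins and the Krtap genes differed by 0.20. On chromosome 15, *Krt6b* and *Krt6a*, which lie between *Krt75* and *Krt71*, differed by 7.2 and 6.96, and *Krt5* in the same interval gave 0.22.

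**Figure D4:**
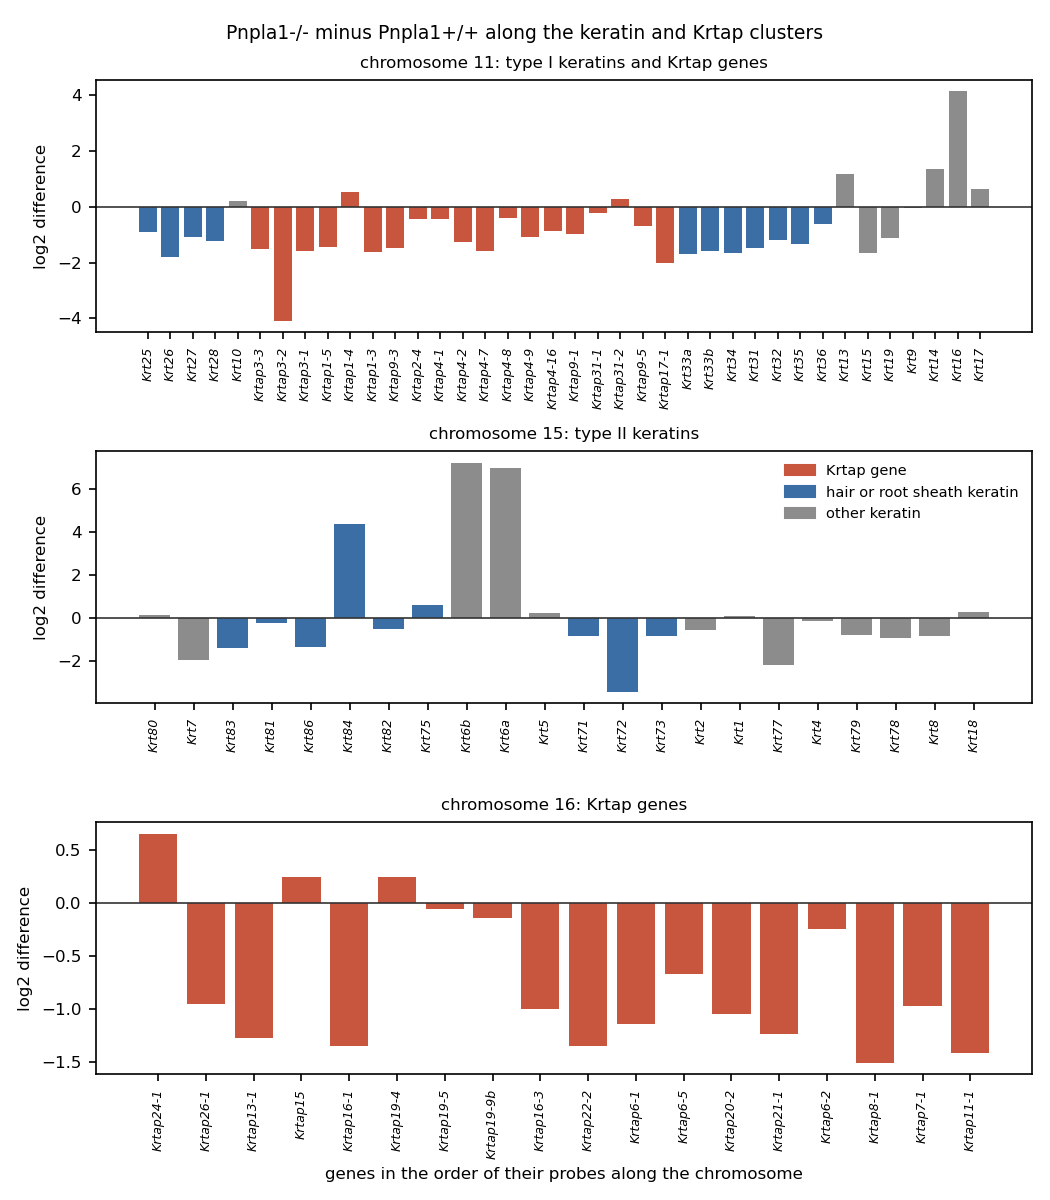
Log2 difference (*Pnpla1*-/- minus *Pnpla1*+/+, y axis) of measured genes in the order of their probes along chromosomes 11, 15 and 16 (x axis, not to scale of distance); colours mark Krtap genes, hair or sheath keratins, and other keratins, and the y axes of the panels differ. Bars of members point down in 28 of 30 genes on chromosome 11, while on chromosome 15 *Krt84* (4.37) points up among lower neighbours. *Krt85*, whose representing probe is unplaced, is not shown.

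Genes that act with the hair keratins were of mixed direction. Of 34 partner genes, 10 were at least 2-fold lower and 3 at least 2-fold higher, with a median of -0.47. The lower genes numbered from 6 (normexp) to 16 (spike-in centring) over the alternatives. Among 12 transcription factors, *Hoxc13*, which drives hair keratin genes, gave a signal of 1451 on the wild-type and 592 on the knockout array (-1.01), and *Lef1*, of the Wnt pathway, had intensities of 14654 and 5998 (-1.01). Both lie at the 2-fold line, and *Hoxc13* was under it with cyclic loess and normexp (-0.91 in each) and *Lef1* with cyclic loess and the mean over probes (-0.99 in each). *Ovol1* was higher (1.59), *Msx1* gave -0.80 and the brightest, *Gata3*, which marks the inner root sheath, gave -0.27. Among 14 enzymes and adhesion proteins, 6 were at least 2-fold lower and 2 higher. *S100a3*, a calcium-binding protein of the hair cuticle, had intensities of 8390 and 2243 (-1.62). *Dsg4*, the desmoglein of the hair shaft, had intensities of 161 and 46.8 (-1.5), but -0.61 with normexp. *Crym* (-1.06) and *Padi1* (-1.05) of the same 6 were also under 2-fold in an alternative, *Crym* with cyclic loess (-0.98) and *Padi1* with cyclic loess (-0.97) and normexp (-0.91). The cross-linking enzymes *Tgm3* (2.12) and *Tgm1* (1.86), which the epidermis also makes, were higher, and *Krt17*, the brightest of the list, gave 0.65. Among 8 signals, *Bmp2* (-1.38) and *Shh* (-1.10, but -0.87 with normexp) were at least 2-fold lower, and the brightest, *Bmp4* and *Wnt10a*, gave -0.64 and 0.38. *Fgf5* exceeded background on the wild-type array alone and was at least 1.90-fold lower. This bound ran from 1.17-fold with normexp to 2.56-fold with spike-in centring. It also passed 2-fold with no scaling, quantile normalization and cyclic loess. With no filter on dim probes *Fgf5* had no bound, only a ratio to a knockout signal not above background. Of the 10 partner genes at least 2-fold lower, 6 were thus under 2-fold in at least 1 alternative, while the 3 higher ones were not.

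Keratins of the epidermis and of other epithelia were divided in direction. They are listed together as epidermal keratins, although *Krt4*, *Krt7*, *Krt8*, *Krt13*, *Krt18* and *Krt19* are not typical of the epidermis. Of 20 genes, 4 were at least 2-fold lower and 5 at least 2-fold higher, with a median of 0.04 that was below 0 with no scaling, scaling by the array median, spike-in centring, quantile normalization and cyclic loess. The counts became 7 lower and 4 higher with no scaling and 7 and 3 with spike-in centring, where *Krt78*, *Krt79* and *Krt8* (-0.92, -0.78 and -0.84) passed 2-fold. *Krt7* (-1.92) and *Krt15* (-1.67) were at least 2-fold lower under each alternative. *Krt16*, a keratin of stressed epidermis like *Krt6a* and *Krt6b*, was higher by 4.13. The brightest in *Pnpla1*+/+ skin, *Krt10* (0.20) and *Krt1* (0.10) of the differentiated layers, were near 0 and turned below 0 with no scaling and with spike-in centring. *Krt77* exceeded background on the wild-type array alone and was at least 4.58-fold lower, but 1.92-fold with normexp, which also took *Krt19* from -1.11 to -0.76. *Krt13*, higher by 1.15, gave 0.87 with no scaling, 0.72 with spike-in centring and -0.44 with the mean over probes, and *Krt14* (1.35) gave 0.91 with spike-in centring.

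Markers of the cells around the shaft were mostly lower too. All 10 follicle epithelium markers were below 0 (3 at least 2-fold lower, median -0.59, with 1 lower under normexp and 5 under no scaling or spike-in centring), and their summed scaled level was 16.3 in *Pnpla1*+/+ and 8.45 in *Pnpla1*-/- skin. The brightest was *Lhx2* (-1.28), *Lgr5* gave -0.99, and *Fgf20* was at least 2.49-fold lower, but 1.93-fold with the mean over probes and 1.32-fold with normexp. Of 10 dermal papilla markers, 8 were below 0 and 4 at least 2-fold lower (median -0.81; 3 with cyclic loess or normexp and 8 with spike-in centring), with a summed scaled level of 10.2 and 6.48. These included *Crabp1* (-1.78), *Corin* (-1.49), *Rspo3* (-1.10) and *Sox18* (-1.0, but -0.92 with cyclic loess and -0.95 with normexp), while the brightest was *Ncam1* (-0.98) and *Prdm1* gave 0.41. Of 7 melanocyte markers, 6 were below 0 and none at least 2-fold lower (median -0.33), with summed levels of 32.2 and 25.7 and *Dct* as the brightest (-0.38). *Fgf20* on the knockout array was the 1 value of these lists below background. The part of the number of follicles or of their cells in the values of the hair keratins was not tested.

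Markers of other tissue in the sample differed less or in the other direction. Medians were -0.15 for 7 fibroblast markers (brightest *Col1a2*, levels summed over the list 344 and 325), 0.06 for 5 measured of 6 adipocyte markers (*Fabp4*, 72.5 and 76.4, *Lep* being near background on both arrays), 0.06 for 6 skeletal muscle markers (*Myh8*, 218 and 251) and 0.15 for 6 epidermis markers (*Krt10*, 503 and 567). Muscle and fat genes thus gave signals far above background on both arrays. Of the fibroblast markers, 4 were below 0 and none at least 2-fold lower, with *Dpt* lowest at -0.91. It passed 2-fold with no scaling (-1.19) and with spike-in centring (-1.35). The positive medians of the adipocyte, muscle and epidermis lists are smaller than the shift of all genes with spike-in centring (-0.43) and turned below 0 there. Leukocyte markers had a median of 1.0, with 4 of 7 at least 2-fold higher and summed levels of 15.9 and 27.8. *Itgam*, the brightest in *Pnpla1*+/+ skin, gave -0.03, but 1.32 with the mean over probes. With no scaling and with spike-in centring 2 leukocyte markers were at least 2-fold higher. Of 4 red cell markers, 2 were at least 2-fold higher, with a median of 0.97 and summed levels of 39.4 and 70.4, and the brightest, *Hba-a1*, gave 0.83. Neither of these 2, *Alas2* and *Slc4a1*, was 2-fold higher with spike-in centring (0.89 and 0.68). *Slc4a1* was also under 2-fold with no scaling (0.83) and with normexp (0.94). Their part in the values of the hair keratins was not tested.

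**Figure D5:**
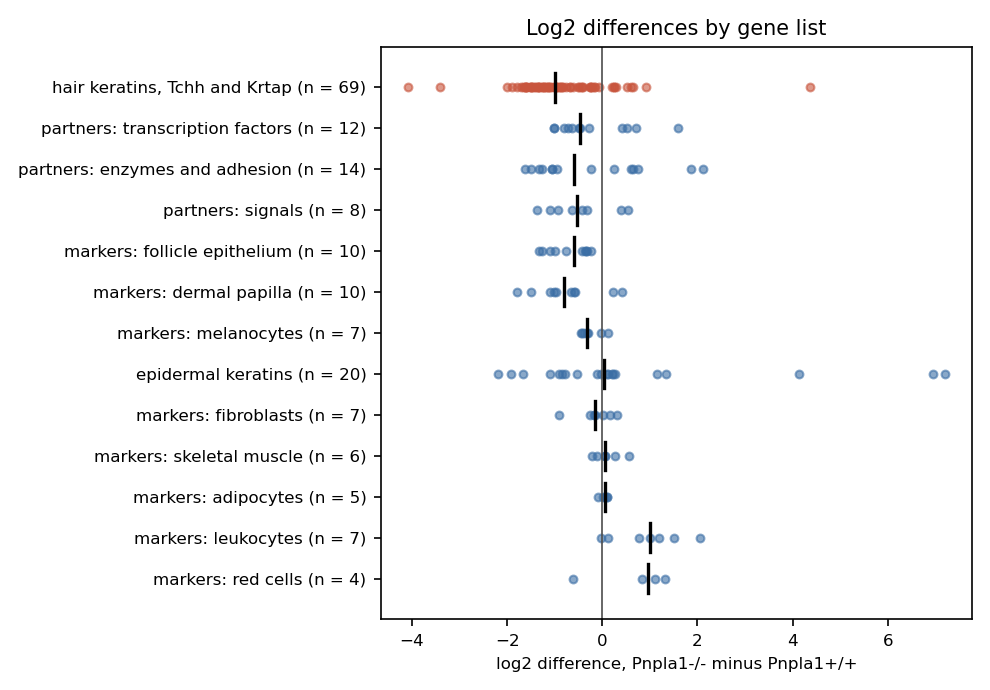
Log2 difference (*Pnpla1*-/- minus *Pnpla1*+/+, x axis) of each measured gene by list (y axis, with the number of genes); 1 point is 1 gene and the black line is the median of the list. The hair keratins, *Tchh* and Krtap genes have the lowest median (-1.0) of the lists shown, followed by the dermal papilla markers (-0.81).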

How the data were processed

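Skin RNA was measured on 1-colour (Cy3) Agilent Mouse Gene Expression arrays read with a SureScan scanner, 1 array per genotype. According to the submitters' processing notes, images were processed with Agilent Feature Extraction 11.5.1.1, and the authors then used GeneSpring GX with a global normalization. The deposited scanner files hold the intensity of each spot after background subtraction, not scaled between arrays, with flags and mm9 probe positions. The deposited value table holds a ratio of this intensity to 1 factor per array (2109 on the wild-type and 1734 on the knockout array), the same for every spot.

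Signals were scaled by each array's 75th percentile over non-control spots and log2-transformed (Python 3.11.15, pandas 2.3.3, numpy 2.4.6). Outlier-flagged spots were dropped (138 wild-type, 82 knockout), replicate spots were averaged, and the brightest probe stood for its gene. Brightness was the mean log2 signal of both arrays, so that the knockout signal had a part in the choice. For *Krtap5-5* the probe brightest in *Pnpla1*+/+ skin (807, with a difference of -1.44) was thus not the one used. Genes exceeding background on both arrays (20680 of 30133) received a difference. Genes exceeding it on the wild-type (590) or knockout (1120) array alone received a bound, set against whichever was higher of the dim signal and the lowest signal above background. Of these 1710, 1694 gave a bound of 1-fold or more and were counted, and the other 16 were not. The remaining 7743 genes exceeded background on neither array. Bounds enter medians and counts at their bound. Bounds are given as at least N-fold. With 1 array per genotype there was no test. The number of arrays limits the precision.

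Names were updated through RefSeq (GRCm38.p6, names and promoters only), which matched 88 of the 92 member probes, while members kept the name in the files. Keratins were all named, and Krtap genes by a rule: the 10 brightest in *Pnpla1*+/+ skin and the 8 lowest and 5 highest differences, no Krtap gene having a bound. Of the partner and follicle lists the 4 largest differences and the 2 brightest genes were considered, and the other lists are given by counts, medians and brightest gene. Members and lists were chosen with earlier results of these data known. Classes of Krtap genes by protein composition were not made, since no protein sequences were used here. Alternatives were other scalings, quantile normalization, cyclic loess and normexp (offset 50), run in R 4.3.3 with limma 3.58.1, spike-in centring, the deposited ratios, the mean over probes, other filters, outlier-flagged spots kept, and thresholds of 1.5-fold and 3-fold. The computation was tested on simulated data.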

Additional observations from a re-analysis of the deposited data

How the results depend on the processing

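With no scaling and with centring on the E1A spike-in probes the median of all genes shifted to -0.28 and -0.43, and every list shifted with it, while with no filter on dim probes it was 0.10. Relative to the median of all genes, the member median was -1.0 and ranged from -1.07 to -0.86 over the 12 alternatives, and 27 to 48 members were at least 2-fold lower against 34. All 34 stayed below 0 under each alternative and 25 stayed at least 2-fold lower under each. *Krt32*, *Krtap1-3*, *Krtap13-1*, *Krtap21-1*, *Krtap28-10*, *Krtap4-2* and *Krtap4-9* were under 2-fold with normexp, *Krtap20-2* with cyclic loess and *Krtap6-1* with the mean over probes. The direction changed in at least 1 alternative for 8 of 69 members (*Krtap15*, *Krtap19-4*, *Krtap5-5*, *Krtap31-2*, *Krtap19-5*, *Krtap19-9b*, *Krtap2-4* and *Krtap6-2*). *Pnpla1* ranged from -2.50 (spike-in centring) to -1.51 (normexp). For all genes, the 681 lower and 1499 higher genes (31.2% of calls lower) became 1424 and 998 (58.8%) with no scaling, 2182 and 827 (72.5%) with spike-in centring, 890 and 1270 (41.2%) with quantile normalization, 321 and 960 with normexp, about 1.1e+03 (3.67% of genes) and 3041 with no filter, 2092 and 3092 at 1.5-fold and 228 and 684 at 3-fold.

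With no scaling the medians were -1.28 for members, -1.27 for Krtap genes, -1.75 and -0.65 for type I and type II hair keratins, -1.45 and -1.13 for type I and type II sheath keratins, -0.75 for partner genes and -0.25 for epidermal keratins. With spike-in centring the same medians were -1.43, -1.42, -1.90, -0.80, -1.60, -1.28, -0.90 and -0.40. Normexp gave -0.82 for members and -0.71 for Krtap genes. Cyclic loess gave -1.37 for type I hair keratins and -0.064 for epidermal keratins, quantile normalization -0.97 for type II sheath keratins and -0.12 for epidermal keratins, and the mean over probes -0.58 for type II hair keratins. At 3-fold 11 members and 6 Krtap genes were lower. At 1.5-fold 4 members and 2 Krtap genes were higher, and with no filter 2 and 1. Beyond the arithmetic of a scaling, threshold or filter, the cause was not tested. No paired analysis was possible because each genotype had 1 array, with a number given in accession order only. Dim members, such as *Krtap31-2* and *Krtap15*, lie near the lowest signal above background.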

Other observations

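The probe named *Gm11570* in the files carries an accession that RefSeq now lists as *Krtap16-1*. It was outside the members, which were taken by the name in the files, and was noticed after its values were seen. It gave a signal of 1249 on the wild-type and 342 on the knockout array, a log2 difference of -1.59, while the probe that the files name *Krtap16-1* matches *Krtap19-2* in RefSeq and gave -1.35.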
